A study of Mus musculus with 34 samples.

Results

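The insulin-like growth factor (IGF) axis is described here through 10 genes: the ligands Igf1 and Igf2, the receptor Igf1r and the binding proteins Igfbp1 to Igfbp7. They were taken by name from the 23509 genes listed in the count tables of 34 mouse kidney libraries. All 10 were listed, and all 10 were among the 15644 genes that passed the filter on low counts. The kidneys were harvested at postnatal day 28. UNT kidneys (n = 12) came from untreated wildtype C57BL6 mice. PBS kidneys (n = 11) came from C57BL6 Pkd2-KO mice, spelled Pdk2KO in the sample labels, that received vehicle under the skin on days 10, 11, 12 and 19. RGLS4326 kidneys (n = 11) came from mice of the same genotype that received 20 mg per kg of RGLS4326, an anti-miR-17 oligonucleotide, on the same days. The knockout is a model of polycystic kidney disease in which Cre driven by the kidney tubule promoter of Pkhd1 deletes floxed Pkd2, so other cell types keep the gene. Because UNT mice lacked both the Pkd2 deletion and the injections, the effects of these cannot be told apart in the comparison of PBS with UNT.

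IGF1 and IGF2 are small secreted peptides that signal through the receptor tyrosine kinase encoded by Igf1r, which drives growth and survival through the PI3K, AKT and mTOR kinases. The binding proteins hold the peptides in blood and tissue, lengthen their life and either block or deliver them to the receptor, and proteases release the ligand by cutting them. IGFBP7 is the exception of the family, with low affinity for the IGFs. In the kidney the axis is known for its part in growth of the organ and of cyst epithelium, and several binding proteins also act on matrix and integrins without the ligands.

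The libraries held 17603122 to 54981992 reads in genes. Pkd2, the gene deleted in the tubules, was 1.71-fold lower in PBS than in UNT kidneys (160.1 ± 32.2 against 274 ± 34.4 CPM, counts per 1000000 reads after TMM scaling, mean ± SD), and no PBS kidney reached the UNT range. Markers of the kidney's cell types were present in all groups, but their sums moved widely between them. The summed CPM of 6 proximal tubule markers was 8308 to 12150 in UNT, 776 to 2716 in PBS and 1652 to 3010 in RGLS4326 kidneys. For 7 fibroblast and pericyte markers it was 523 to 1220, 2556 to 5438 and 3443 to 5067. For 5 of 6 listed macrophage markers it was 79.6 to 126, 379.7 to 878 and 363 to 669. The sixth, Adgre1, was not found under that symbol, and no found marker was at 0 in all libraries. In whole kidneys, fewer cells of a type and less RNA per cell cannot be told apart, and the part of these shifts in the changes below was not tested.

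The drug acts on miR-17, so its sequence and the stretches of the IGF axis mRNAs that pair with its seed are shown before the values. The mature miRNA is printed 5′ to 3′, with the seed, bases 2 to 8, in capitals.
mmu-miR-17-5p: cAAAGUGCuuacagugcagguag
It lies at chr14:115043684-115043706 on the plus strand (GRCm38.p6, RefSeq). Of the mature miRNAs in the RefSeq table, 7 carried this seed: miR-17-5p, miR-20a-5p, miR-20b-5p, miR-93-5p, miR-106a-5p, miR-106b-5p and miR-6383. The longest annotated 3′ untranslated region (UTR) of each gene was read along the mRNA strand for GCACTTTA (an 8mer), GCACTTT or CACTTTA (7mers), counting overlapping letters once. Of the 10 genes, 3 held a match, each a single 7mer, against 21.2% of 14193 tested genes with an annotated UTR. None of the 10 held the 8mer, which 4.26% of those genes did. The matches are shown in capitals, with 10 bases on each side as the mRNA reads.
Igf1: atttttatcaCACTTTAaaggccaagg
Igfbp4: gtgtcagcctGCACTTTgggacttgtt
Igfbp7: aacccactaaCACTTTAttacagccag
The Igf1 match was at chr10:87936708-87936714, 5974 bases into a UTR of 6308 bases. The Igfbp4 match was at chr11:99053141-99053147, 1562 bases into 2813. The Igfbp7 match was at chr5:77349372-77349378 on the minus strand, 102 bases into 240 (all GRCm38). These are letter matches in the annotation, and whether the miRNA binds them was not measured.

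In kidneys of Pkd2-KO mice given PBS, the IGF axis was shifted in both directions against UNT kidneys. Igfbp2 was 20.0-fold higher and Igfbp6 was 5.80-fold higher, while Igfbp1, Igfbp5, Igfbp3, Igfbp4, Igf1r and Igf1 fell. Igfbp7, by far the most abundant of the transcripts, was 1.11-fold higher. By edgeR's quasi-likelihood test, with p-values adjusted over all tested genes, 9 of 10 passed an adjusted p of 0.05, of which 3 were higher and 6 lower. The background was wide: 82.1% of all tested genes passed in this comparison, 43.1% higher and 39.0% lower. The median log2 fold change was -0.35 over the 10 genes and 0.04 over all tested genes. Fewer differed between RGLS4326 and PBS: 3 of 10 passed, with Igf1 and Igfbp1 higher and Igfbp6 lower, against 33.8% of all tested genes (15.3% higher, 18.5% lower). The count depended on 4 libraries that stood apart from the other RGLS4326 kidneys, RGLS4326 5, 6, 7 and 11, in which 11.3 to 12.0% of reads fell in no gene, against 4.94 to 8.92% in the other 7. Without them edgeR called none of the 10 genes (4 at an unadjusted p under 0.05) and 2.1% of all tested genes, while DESeq2 called 3 of the 10 on all libraries. The values were then -0.97 for Igfbp6 and 1.34 for Igfbp1 (both edgeR adjusted p = 0.0528) and 0.15 for Igf1 (edgeR adjusted p = 0.372). The median log2 fold change here was 0.06 over the 10 genes and 0.00 over all. Against UNT, 8 of 10 passed in RGLS4326 kidneys, 3 higher and 5 lower, against 77.7% of all genes (40.8% higher, 36.9% lower). PBS kidneys enter both of the first 2 comparisons, so their values are not independent of each other.

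**Figure D1:**
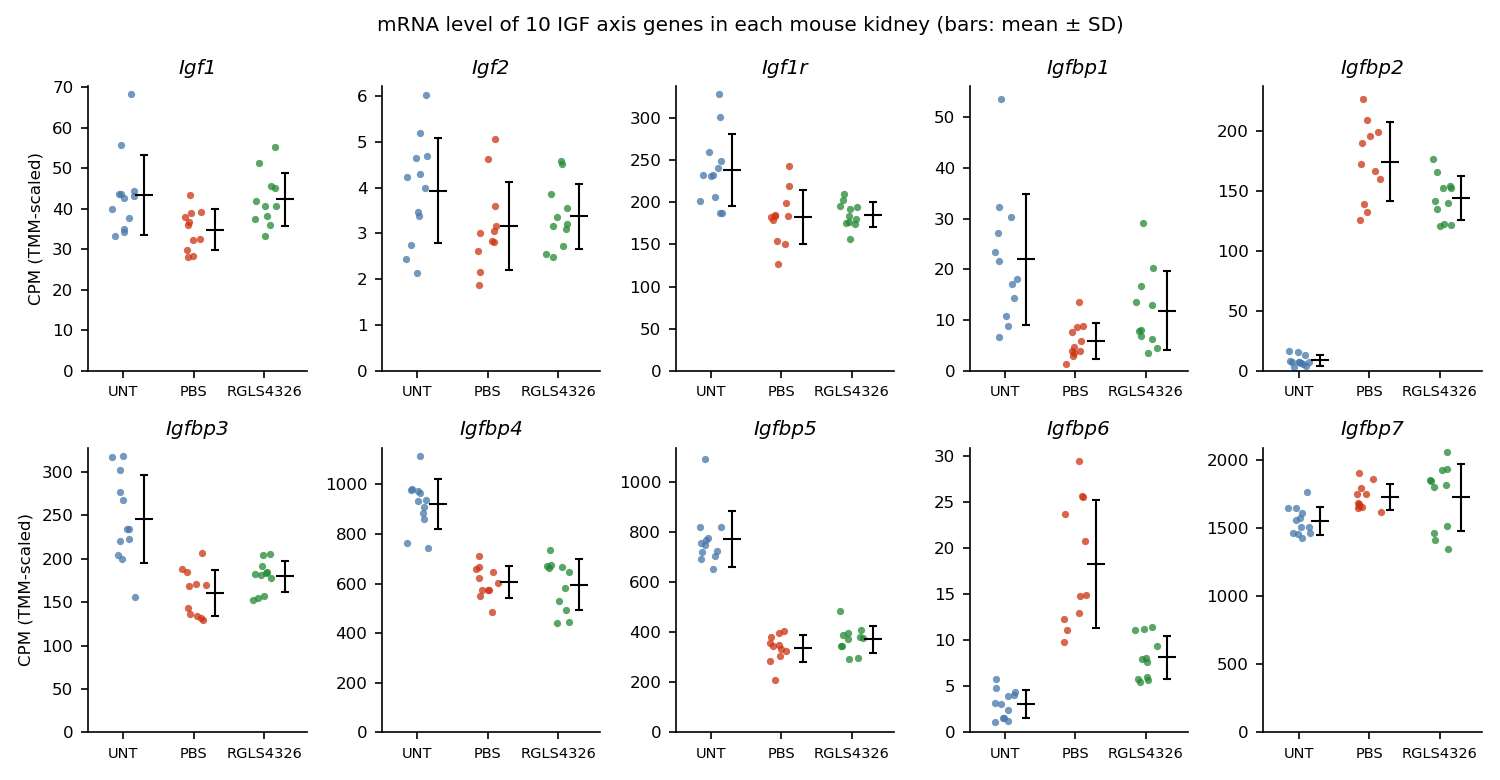
CPM of each of the 10 genes (linear axis from 0, one panel a gene) in every kidney of the UNT (n = 12), PBS (n = 11) and RGLS4326 (n = 11) groups; black bars are the mean and SD. Igfbp2 and Igfbp6 of all PBS kidneys lie above all UNT kidneys, Igfbp4 and Igfbp5 of all PBS kidneys lie below them, and 8 of 11 RGLS4326 kidneys lie below the lowest PBS kidney for Igfbp6.

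Igf1 (chr10:87858265-87937042, plus strand; gene positions are those of GRCm38) encodes the main growth hormone-dependent ligand, made in liver and locally in many tissues. Its level was 33.4 CPM in the lowest UNT kidney, 42.9 at the median and 68.3 in the highest. In PBS kidneys the lowest, median and highest values were 28.1, 36.0 and 43.5 CPM, and in RGLS4326 kidneys 33.2, 40.7 and 55.2 CPM. All 11 PBS kidneys lay below the UNT mean and 10 of 11 RGLS4326 kidneys lay above the PBS mean, but the ranges overlapped in both comparisons. PBS was 1.25-fold lower than UNT (log2 fold change -0.32 ± 0.10 SE, edgeR adjusted p = 0.00418). RGLS4326 was 1.21-fold higher than PBS (0.28 ± 0.10, edgeR adjusted p = 0.0353) and differed from UNT by -0.04 ± 0.10 (95% interval -0.25 to 0.16). With library totals alone the difference from UNT was 0.26 and was called (edgeR adjusted p = 0.0365). The fall in PBS kidneys was not called when library totals alone set the scale (log2 fold change -0.03, edgeR adjusted p = 0.782), nor with the percentage of reads in no gene (-0.094, edgeR adjusted p = 0.566) or the percentage of reads not uniquely aligned (-0.14, edgeR adjusted p = 0.688) as covariate. The library numbers restart in 3 blocks, and in numbering block 1 alone it was -0.010 (edgeR adjusted p = 0.943). The percentage not uniquely aligned was 22.8 to 25.7% in UNT, 14.8 to 19.4% in PBS and 14.8 to 19.1% in RGLS4326 kidneys. It did not overlap between UNT and either other group, and the percentage in no gene did not overlap between PBS and UNT kidneys. Here and for the genes below, such fits cannot separate the covariate from the group. The rise after RGLS4326 lost its call when any of 9 single libraries was left out (PBS 4, 7, 8, 9 and 11, RGLS4326 2, 5, 7 and 11), with values of 0.24 to 0.32 over all single omissions. It was 0.039 in block 1 alone (edgeR adjusted p = 0.878), 0.31 in block 3 alone (edgeR adjusted p = 0.264) and 0.16 with the percentage of reads in no gene as covariate (edgeR adjusted p = 0.405).

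Igf2 (chr7:142650766-142666816, minus strand) encodes the fetal ligand, an imprinted gene that is largely shut off after birth. It was the lowest of the 10 genes per length of exon, with 38 to 238 reads a library. Its level ran from 2.13 over a median of 4.11 to 6.01 CPM in UNT, from 1.87 over 2.998 to 5.05 in PBS and from 2.49 over 3.21 to 4.58 in RGLS4326 kidneys. The ranges of all groups overlapped. It did not pass in any comparison as fitted, with a log2 fold change of -0.32 ± 0.16 for PBS against UNT (edgeR adjusted p = 0.0614), 0.10 ± 0.16 for RGLS4326 against PBS (95% interval -0.24 to 0.43) and -0.22 ± 0.16 for RGLS4326 against UNT (edgeR adjusted p = 0.199). In the annotation read here, overlaps with Gm49394 on the same strand and Igf2os on the other summed to 64.5% of its exon bases. A base in both counted for each. The annotation used for counting is not known, so its count is uncertain. Its lower level in PBS kidneys passed by DESeq2 (-0.36, adjusted p = 0.0314), with DESeq2 size factors in edgeR (adjusted p = 0.0386), with no filter (adjusted p = 0.0443), with the Ddx3y level as covariate (adjusted p = 0.0491) and without UNT 3, 10 or 12 or PBS 1 or 8. It was not called with library totals alone. Of 15 settings other than single omissions, 7 called it, 7 left it uncalled and 1 turned its sign, with an edgeR adjusted p of up to 0.83. Both differences from UNT passed in block 2 alone, at -0.72 for PBS (edgeR adjusted p = 0.00439) and -0.64 for RGLS4326 (edgeR adjusted p = 0.0179), and turned to 0.080 and 0.19 in block 3 alone. Both also passed with the percentage not uniquely aligned as covariate, at -1.15 (edgeR adjusted p = 0.00947) and -1.04 (edgeR adjusted p = 0.0178). That percentage did not overlap between UNT and either other group, so this fit cannot separate it from the group.

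Igf1r (chr7:67952827-68233668, plus strand), the receptor through which both ligands act, was 188 CPM in the lowest UNT kidney, 232 at the median and 328 in the highest. In PBS kidneys these values were 126, 183 and 242 CPM, and in RGLS4326 kidneys 156, 183 and 209.9 CPM. The groups overlapped, with PBS and RGLS4326 kidneys centred on the same level below most UNT kidneys. The receptor mRNA was 1.31-fold lower in PBS than in UNT (log2 fold change -0.39 ± 0.09, edgeR adjusted p = 0.00021) and was not called between RGLS4326 and PBS (0.02 ± 0.09, 95% interval -0.16 to 0.21). With library totals alone, the PBS difference shrank to -0.08 and was not called (edgeR adjusted p = 0.349). It was not called either with the no-gene percentage (-0.29, edgeR adjusted p = 0.052) or the percentage not uniquely aligned (-0.14, edgeR adjusted p = 0.622) as covariate, or in numbering block 2 alone (-0.12, edgeR adjusted p = 0.382). RGLS4326 was 1.28-fold lower than UNT (-0.36 ± 0.09, edgeR adjusted p = 0.000494), again not called with library totals alone (-0.05, edgeR adjusted p = 0.571), with the percentage not uniquely aligned (-0.11, edgeR adjusted p = 0.713) or in block 2 alone (-0.24, edgeR adjusted p = 0.129).

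Igfbp7 (chr5:77349240-77408041, minus strand) encodes a secreted protein of vessels and injured tubules. UNT kidneys held 1426 to 1764 CPM around a median of 1533, PBS kidneys 1615 to 1904 around 1685, and RGLS4326 kidneys 1347 to 2056 around 1818. RGLS4326 kidneys spread over a wider range than either other group, with RGLS4326 5, 6, 7 and 11, the libraries with the most reads in no gene, at 1347 to 1517 CPM and the other 7 at 1804 to 2056 CPM. Without these 4 libraries RGLS4326 differed from PBS by 0.13 (edgeR adjusted p = 0.142) and from UNT by 0.29 (edgeR adjusted p = 2.02e-05). The log2 fold change was 0.15 ± 0.07 for PBS against UNT (edgeR adjusted p = 0.0311). This direction turned with either share of unassigned reads as a covariate, to -0.13 and -0.17, but neither share overlapped between PBS and UNT kidneys. The call was lost by DESeq2 (0.12, adjusted p = 0.0501), with DESeq2 size factors in edgeR (adjusted p = 0.084) with no filter (adjusted p = 0.125), without UNT 11, PBS 1 or PBS 9, and in blocks 1, 2 and 3 alone (0.095, 0.12 and 0.17, edgeR adjusted p = 0.396, 0.21 and 0.329). RGLS4326 against UNT gave 0.15 ± 0.07 (edgeR adjusted p = 0.0354), a call lost when any of 11 single libraries was left out, by DESeq2 (0.12, adjusted p = 0.0613), with DESeq2 size factors in edgeR (adjusted p = 0.0987), with no filter (adjusted p = 0.103) and with only the 2 groups compared (adjusted p = 0.142). With the percentage of reads in no gene as covariate this difference was 0.0002 (edgeR adjusted p = 0.997), and it turned to -0.10 in block 2 alone and -0.18 with the percentage not uniquely aligned. RGLS4326 and PBS differed by -0.002, with a 95% interval of -0.14 to 0.14.

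Igfbp4 (chr11:99041244-99054392, plus strand) encodes a binding protein that withholds IGFs until PAPP-A cuts it. It was 744 CPM at the lowest, 936 at the median and 1115 at the highest in UNT kidneys. PBS kidneys held 487, 604 and 711 CPM and RGLS4326 kidneys 441, 648 and 734 CPM. No PBS and no RGLS4326 kidney reached the UNT range. The fall was 1.52-fold in PBS (log2 fold change -0.60 ± 0.08, edgeR adjusted p = 4.13e-08) and the difference between RGLS4326 and PBS was -0.03 ± 0.08 (95% interval -0.20 to 0.14). That difference was 0.29 in block 1 alone (edgeR adjusted p = 0.178), -0.37 in block 2 alone, where it was called (edgeR adjusted p = 0.0374), and 0.11 with the percentage of reads in no gene as covariate (edgeR adjusted p = 0.38). The libraries RGLS4326 5, 6, 7 and 11 held 441 to 532 CPM and the other 7 held 584 to 734 CPM, and without these 4 the difference from PBS was 0.13 (edgeR adjusted p = 0.267). RGLS4326 was 1.55-fold lower than UNT (-0.63 ± 0.08, edgeR adjusted p = 1.97e-08).

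Igfbp5 (chr1:72857932-72874884, minus strand), whose protein binds matrix and can raise IGF action, fell further. UNT kidneys held 653, 753 and 1094 CPM as lowest, median and highest, PBS kidneys 210.3, 345 and 406, and RGLS4326 kidneys 293, 377 and 486. Neither knockout group overlapped UNT. PBS was 2.30-fold lower (log2 fold change -1.20 ± 0.09, edgeR adjusted p = 3.17e-14), and RGLS4326 differed from PBS by 0.15 ± 0.09 (edgeR adjusted p = 0.214) and from UNT by -1.06 ± 0.09 (edgeR adjusted p = 1.15e-12).

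Igfbp3 (chr11:7206086-7213923, minus strand) encodes the main IGF carrier of plasma, which forms a ternary complex with the acid-labile subunit. The lowest, median and highest UNT kidneys held 156, 234 and 319 CPM. PBS kidneys held 129, 168 and 207 CPM and RGLS4326 kidneys 153, 182 and 205 CPM. The groups overlapped, although most UNT kidneys lay above both others. PBS was 1.54-fold lower than UNT (log2 fold change -0.62 ± 0.10, edgeR adjusted p = 6.08e-07), and RGLS4326 differed from PBS by 0.16 ± 0.10 (edgeR adjusted p = 0.192). Against UNT the RGLS4326 difference was -0.45 ± 0.10 (edgeR adjusted p = 8.59e-05), and library totals alone took its call (-0.16, edgeR adjusted p = 0.153), as did block 3 alone (-0.11, edgeR adjusted p = 0.51). With the percentage not uniquely aligned as covariate, neither difference from UNT was called, at -0.53 for PBS (edgeR adjusted p = 0.0649) and -0.37 for RGLS4326 (edgeR adjusted p = 0.221).

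Igfbp2 (chr1:72824503-72852474, plus strand), which binds both ligands and also integrins, showed the widest separation of the 10 genes. UNT kidneys held 3.495 to 16.2 CPM around a median of 7.57. PBS kidneys held 126 to 226 around 172 CPM, and RGLS4326 kidneys 121 to 176 around 142 CPM. Every knockout kidney of either group was above every UNT kidney, while PBS and RGLS4326 kidneys overlapped. The log2 fold change was 4.32 ± 0.19 for PBS (edgeR adjusted p = 6.62e-21) and 4.05 ± 0.19 for RGLS4326 against UNT (edgeR adjusted p = 4.56e-20). Between RGLS4326 and PBS it was -0.28 ± 0.17 and was not called (edgeR adjusted p = 0.204), though a fit to these 2 groups alone called it (-0.27, edgeR adjusted p = 0.0369). Igfbp2 and Igfbp5 are neighbours, 5457 bases apart on opposite strands, and moved in opposite directions.

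Igfbp6 (chr15:102144362-102149511, plus strand) encodes the binding protein that prefers IGF2. Its lowest, median and highest levels were 1.17, 3.11 and 5.81 CPM in UNT kidneys, 9.85, 14.85 and 29.5 CPM in PBS kidneys and 5.44, 7.91 and 11.4 CPM in RGLS4326 kidneys. All PBS kidneys were above all UNT kidneys, and RGLS4326 kidneys lay between, overlapping both, with 8 of 11 below the lowest PBS kidney and all 11 below the PBS mean. PBS was 5.80-fold higher than UNT (log2 fold change 2.54 ± 0.24, edgeR adjusted p = 5.7e-12). RGLS4326 was 2.24-fold lower than PBS (-1.16 ± 0.23, edgeR adjusted p = 0.00171) and remained above UNT (1.37 ± 0.24, edgeR adjusted p = 2.77e-06). The call against PBS was kept when each of the 34 libraries was left out, with values of -1.23 to -1.07. It was lost in block 1 alone (-1.08, edgeR adjusted p = 0.118), in block 3 alone (-1.33, edgeR adjusted p = 0.262) and with the percentage of reads in no gene as covariate (-0.95, edgeR adjusted p = 0.0714). The difference from UNT was not called with the percentage not uniquely aligned as covariate (1.12, edgeR adjusted p = 0.127) or in block 2 alone (0.39, edgeR adjusted p = 0.129).

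Igfbp1 (chr11:7197782-7202546, plus strand), which insulin suppresses and FOXO factors switch on, varied most between mice of a group, by 58.5% of the mean (coefficient of variation) in UNT, 59.9% in PBS and 65.9% in RGLS4326 kidneys. UNT kidneys held 6.72, 19.8 and 53.5 CPM as lowest, median and highest, PBS kidneys 1.35, 4.69 and 13.7, and RGLS4326 kidneys 3.56, 8.15 and 29.2. The groups overlapped in both comparisons. PBS was 3.71-fold lower than UNT (log2 fold change -1.89 ± 0.36, edgeR adjusted p = 1.04e-05), a call lost with the percentage not uniquely aligned as covariate (-1.23, edgeR adjusted p = 0.247). RGLS4326 was 1.99-fold higher than PBS (0.99 ± 0.36, edgeR adjusted p = 0.0312) and still below UNT (-0.90 ± 0.34, edgeR adjusted p = 0.0182). The rise after RGLS4326 was not called when PBS 2, 4 or 11 or RGLS4326 1 or 10 was left out, over which and all other single omissions it ran from 0.76 to 1.20. It was not called either with the numbering block as covariate (0.92, edgeR adjusted p = 0.0561) or with the replicate number as a block (0.95, edgeR adjusted p = 0.0723). Within blocks 1, 2 and 3 alone it was 2.47, -0.28 and 0.78, called in none (edgeR adjusted p = 0.0814, 0.698 and 0.374). The fall against UNT was not called without UNT 4, without RGLS4326 5, 6, 7 and 11 (-0.55, edgeR adjusted p = 0.186), with library totals alone (-0.60, edgeR adjusted p = 0.0999), with the percentage not uniquely aligned as covariate (-0.20, edgeR adjusted p = 0.871), or in block 1 alone (-0.51, edgeR adjusted p = 0.406) or block 3 alone (-1.07, edgeR adjusted p = 0.0778). Igfbp1 and Igfbp3 are 3539 bases apart on opposite strands, and both fell in PBS kidneys.

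**Figure D2:**
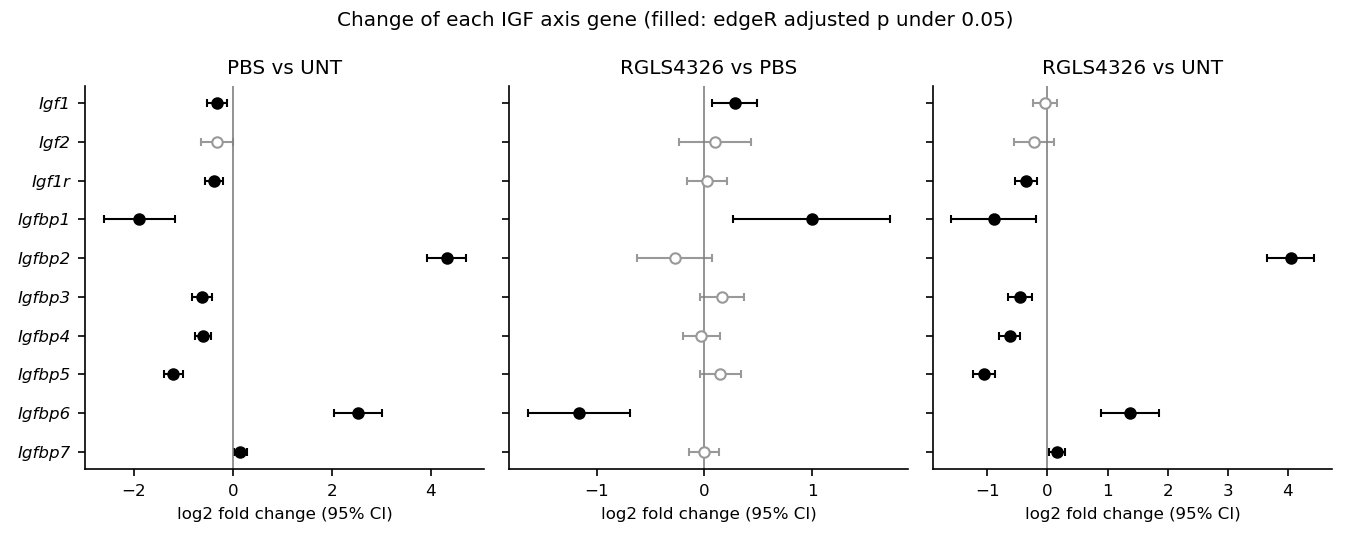
Log2 fold change of each gene with its 95% confidence interval in the 3 comparisons; filled points have an edgeR adjusted p under 0.05, and the vertical line marks no change. Igfbp2 at 4.32 and Igfbp6 at 2.54 stand to the right in PBS against UNT, and only Igf1, Igfbp1 and Igfbp6 are filled in RGLS4326 against PBS.

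The CPM of the PBS and UNT kidneys did not overlap for 4 of the 10 genes (Igfbp2, Igfbp4, Igfbp5 and Igfbp6), against 42.5% of all tested genes. Between RGLS4326 and PBS no gene of the 10 was without overlap, against 0.0639% of all tested genes. Between RGLS4326 and UNT it was 3 genes (Igfbp2, Igfbp4 and Igfbp5), against 36.7%.

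Levels of different genes can be set side by side only per length, so CPM was divided by the length of each gene's exons in kilobases (kb). In UNT kidneys Igfbp7 stood first with 1284 ± 83.7 CPM per kb, followed by Igfbp4 (208.5), Igfbp5 (129), Igfbp3 (78.6), Igfbp1 (14.4), Igf1r (14.2), Igfbp2 (4.71), Igf1 (4.39), Igfbp6 (2.79) and Igf2 (0.687). Neighbouring ranges over mice overlapped for Igfbp4 and Igfbp5, Igfbp1 and Igf1r, Igfbp2 and Igf1, and Igf1 and Igfbp6. In PBS kidneys Igfbp2 rose to the third place with 94.3 CPM per kb, above Igfbp5 (55.9) in all 11 mice, and Igfbp6 (16.4) stood above Igf1r (10.8) in 8 of 11. Igfbp1 (3.87) and Igf1 (3.52) could not be ordered there, with Igfbp1 higher in 5 of 11 mice. In RGLS4326 kidneys Igfbp2 (77.8) kept the third place and Igfbp6 (7.32) stood beside Igfbp1 (7.76), with overlapping ranges. Igfbp7 made up 74.6% ± 1.24 of the summed CPM per kb of the binding proteins in UNT, 79.9% ± 0.688 in PBS and 80.4% ± 0.729 in RGLS4326 kidneys. The share of Igfbp2 was 0.274% in UNT, 5.27% in PBS and 4.41% in RGLS4326 kidneys.

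**Figure D3:**
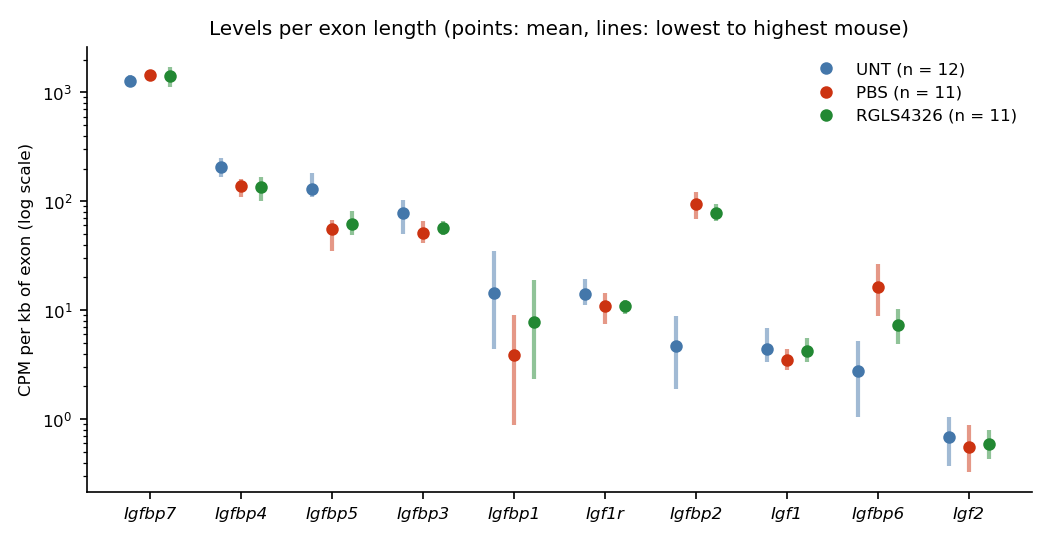
Mean CPM per kb of exon (points, log axis) and the range from the lowest to the highest mouse (lines) for each gene in UNT, PBS and RGLS4326 kidneys, ordered by the UNT mean. Igfbp7 is highest in all groups, with 1284 in UNT, and Igfbp2 moves from 4.71 in UNT to 94.3 in PBS kidneys.

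The 3 blocks of library numbers in the table names may or may not mark a preparation or run, and each held mice of all groups. Within blocks 1, 2 and 3 the difference between PBS and UNT in mean log2(CPM + 1) was 4.50, 3.73 and 4.59 for Igfbp2, 2.69, 1.44 and 2.65 for Igfbp6, and -1.25, -1.17 and -1.21 for Igfbp5. For Igfbp1 it was -2.36, -1.38 and -1.56. These 4 genes thus moved one way in every block. So did Igfbp3 (-0.56, -0.78 and -0.46), Igfbp4 (-0.80, -0.43 and -0.60), Igf1r (-0.37, -0.09 and -0.71) and Igfbp7 (0.13, 0.16 and 0.18). Igf1 differed by 0.03, -0.57 and -0.30, and Igf2 by -0.23, -0.54 and 0.04. Between RGLS4326 and PBS, Igfbp6 differed by -0.96, -1.10 and -1.16. Igfbp1 differed by 2.08, -0.12 and 0.55, positive in blocks 1 and 3 and negative in block 2. Igf1 differed by 0.03, 0.50 and 0.29. Igfbp4 differed by 0.29, -0.39 and -0.07, opposite ways in different blocks. A test of whether the treatment difference itself varied between blocks gave unadjusted edgeR p = 0.00383 for Igfbp4 and 0.0101 for Igfbp1. Both had an adjusted p of 0.865, and the test called 0 of 15233 genes, with 796 at an unadjusted p under 0.05.

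**Figure D4:**
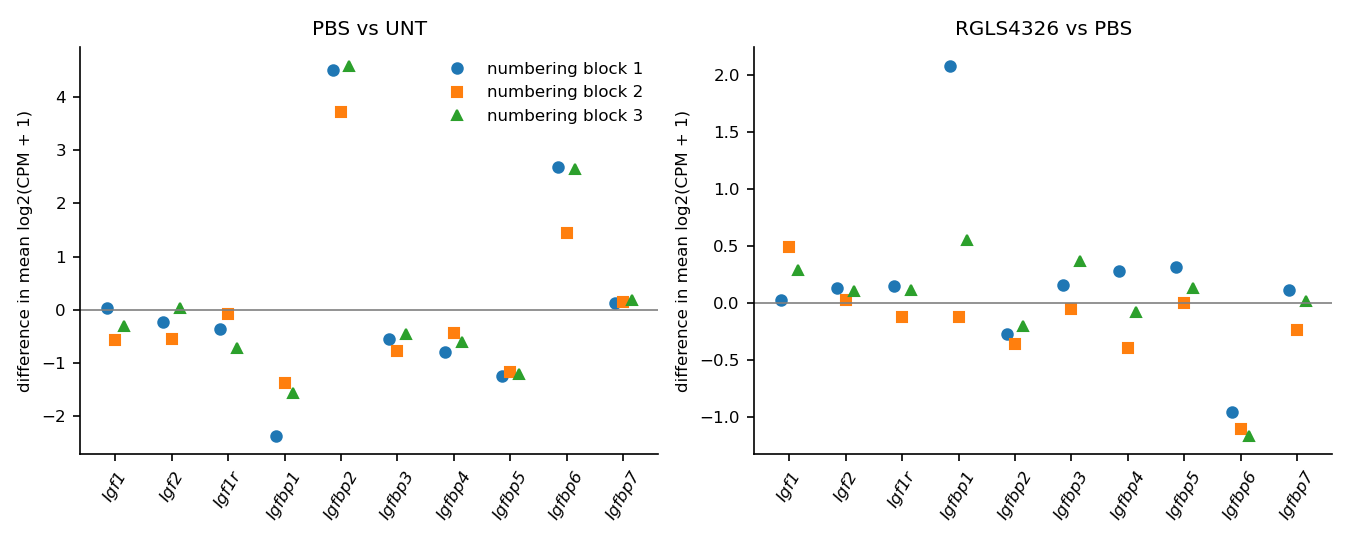
Difference in mean log2(CPM + 1) for each gene within numbering blocks 1, 2 and 3, for PBS against UNT (left) and RGLS4326 against PBS (right); the line marks no difference. After RGLS4326, Igfbp6 lies between -1.16 and -0.96 in all blocks, while Igfbp1 runs from -0.12 to 2.08.

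The share of reads that fell in no gene also differed between libraries. It was 9.84 to 11.3% in UNT, 5.18 to 8.995% in PBS and 4.94 to 12.0% in RGLS4326 kidneys, and in block 2 all RGLS4326 kidneys (11.3 to 12.0%) lay above all PBS kidneys (5.49 to 8.995%). The groups overlapped in block 1 (4.94 to 8.38% in RGLS4326, 5.18 to 7.24% in PBS kidneys) and block 3 (6.14 to 11.7% and 5.67 to 6.65%), and the difference was not tested. With this share as a covariate, edgeR called none of the 10 genes between RGLS4326 and PBS, against 3 at an unadjusted p under 0.05 and 3 called by DESeq2 without the covariate. Over all 15644 genes that fit called 0.569%, against 33.8% without the covariate. The values were then -0.95 for Igfbp6 (edgeR adjusted p = 0.0714), 1.10 for Igfbp1 (edgeR adjusted p = 0.119) and 0.16 for Igf1 (edgeR adjusted p = 0.405). The part of read composition in the treatment differences was not tested further.

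Cell type markers differed as well. Of all tested genes, 43.1% were higher and 39.0% lower in PBS than in UNT kidneys. In RGLS4326 against PBS kidneys the shares were 15.3% higher and 18.5% lower. In PBS kidneys, all 7 fibroblast and pericyte markers, all 5 macrophage markers and all 5 collecting duct principal cell markers were higher than in UNT. All 6 proximal tubule markers were lower. All 5 markers of proliferating cells were higher. Of 6 endothelial markers 2 rose and 4 fell, and of 5 podocyte markers 1 rose and 4 fell. Of 4 thick ascending limb markers 1 rose and 3 fell. Of 5 liver markers, Alb (6.60-fold), Apoa1 (2.95-fold) and Ttr (1.60-fold) fell and Fgb was 14.99-fold higher. In RGLS4326 against PBS kidneys, 1 of 7 fibroblast and pericyte markers was higher and none was lower. Of the macrophage markers 2 of 5 and of the collecting duct markers 3 of 5 were lower, and 4 of 6 proximal tubule, 4 of 6 endothelial and 4 of 5 podocyte markers were higher. Of 4 thick ascending limb markers 2 were higher and 1 lower, and 1 of 5 liver markers was higher. None of the 5 markers of proliferating cells was called by edgeR. The part of cell make-up in the changes of the 10 genes was not tested. The median summed CPM of the fibroblast and pericyte markers was 4092 in PBS and 4554 in RGLS4326 kidneys.

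Over the 34 mice, after the group means were taken off, the genes whose log2 CPM varied most like each member were sought among all tested genes by Pearson's r. These are descriptions, since the libraries share depth, scaling and tissue make-up. Igfbp6 varied with Serpinf1 (r = 0.881), Sh3kbp1 (0.836) and Pi16 (0.823). Igfbp2 was closest to Cygb (0.718), B4galt2 (0.709) and Tnip1 (0.707), and Igfbp3 to Fbln5 (0.719), C1qtnf2 (0.683) and Fzd7 (0.677). Igf2 was closest to H19 (0.734), its imprinted neighbour, then Serpina6 (0.714). Igf1 was closest to Marcks (0.819), Kctd12b (0.693) and A830082K12Rik (0.69), and Igf1r to Lrp6 (0.839), Akap13 (0.814) and Tanc2 (0.812). Igfbp1 varied with Hbp1 (0.809), Tcp11l2 (0.784) and Ccno (0.767), and Igfbp5 with Wnt5a (0.71), Kcna6 (0.697) and Tns3 (0.68). Igfbp4 was closest to Afg3l1 (0.833), D17Wsu92e (0.825) and Lace1 (0.813), and Igfbp7 to Laptm4a (0.821), Anxa7 (0.811) and Aph1a (0.806). Among the 10 genes, Igfbp4 and Igfbp7 were most alike (0.734) and Igf1 and Igfbp4 most unlike (-0.533). Taking off group means leaves the split among RGLS4326 kidneys, in which RGLS4326 5, 6, 7 and 11 were lowest for both Igfbp4 and Igfbp7. Its part in these values was not tested.

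Of 9 tested genes for related receptors and adaptors, 4 were higher and 4 lower in PBS than in UNT kidneys. For this and the lists that follow the background is that of all tested genes, of which 82.1% passed between PBS and UNT (43.1% higher, 39.0% lower) and 33.8% between RGLS4326 and PBS. Insrr, the insulin receptor-related receptor, was 6.38-fold lower (11.9 ± 4.53 against 75.9 ± 11.0 CPM), the docking protein gene Irs1 was 2.75-fold lower and the insulin receptor gene Insr 1.62-fold lower. The adaptors Shc1 (log2 fold change 0.78), Grb10 (0.77) and Grb2 (0.75) were higher. After RGLS4326, Insrr (0.52), Irs1 (0.30) and Insr (0.27) were higher and Grb2 (-0.16) lower than in PBS kidneys, and the other 5 were not called. Igf2r, which clears IGF2, was called in neither comparison (-0.08 and -0.03), and Irs4 was too low to test.

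Of 8 tested genes for proteases of the binding proteins, their inhibitors and the ternary complex, 5 were higher and 1 lower in PBS than in UNT kidneys, against 43.1% and 39.0% of all tested genes. Stc2, an inhibitor of PAPP-A, was 3.41-fold higher (21.2 ± 3.14 against 6.20 ± 1.31 CPM), Adam12 2.10-fold and Pappa 1.68-fold higher. Igfals, which encodes the acid-labile subunit, was 2.21-fold lower. Against PBS, RGLS4326 kidneys had higher Adam12 (0.48) and Adam9 (0.20), and the other 6 were not called. Igfbpl1 was too low to test.

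In the growth hormone axis, which controls Igf1, 2 of 6 genes were higher and 3 lower in PBS kidneys, against 43.1% and 39.0% of all. The receptor gene Ghr was 3.41-fold lower (114 ± 36.6 against 389 ± 162 CPM, no overlap), and Stat5a (-0.89) and Stat5b (-0.41), which carry its signal, were lower too. The feedback inhibitors Socs2 (1.58) and Cish (0.69) were higher. In RGLS4326 kidneys Cish was lower than in PBS kidneys (-0.45) and the other 5 were not called, with Ghr at 0.41 (edgeR adjusted p = 0.0625). The Igf2 mRNA-binding protein genes Igf2bp3 (2.39), Igf2bp1 (0.99) and Igf2bp2 (0.75) were all higher in PBS kidneys. H19 was not called (0.45), no gene of the 4 tested in this list was called between RGLS4326 and PBS, by edgeR, and Igf2os and Ins2 were too low to test.

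Of 19 genes of the PI3K, AKT, mTOR and FOXO route below the receptor, 7 were higher and 8 lower in PBS than in UNT kidneys, again beside 43.1% and 39.0% of all tested genes. The kinase gene Akt1 was 2.29-fold higher (228.5 ± 30.5 against 99.8 ± 7.48 CPM), and Eif4ebp1 (1.61), the translation repressor that mTOR switches off, was higher as well. Mtor itself was 2.42-fold lower (104 ± 17.1 against 252 ± 44.9 CPM), with Rps6kb1 (-0.89) and Tsc1 (-0.53) also lower. After RGLS4326, 4 were higher and 5 lower than in PBS, beside 15.3% and 18.5% of all tested genes. The higher ones included Rps6kb1 (0.36) and Pik3r1 (0.22), and the lower ones Akt1 (-0.29), Eif4ebp1 (-0.44) and Pik3r2 (-0.25). These were mRNA levels, and no protein or phosphorylation was measured.

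**Figure D5:**
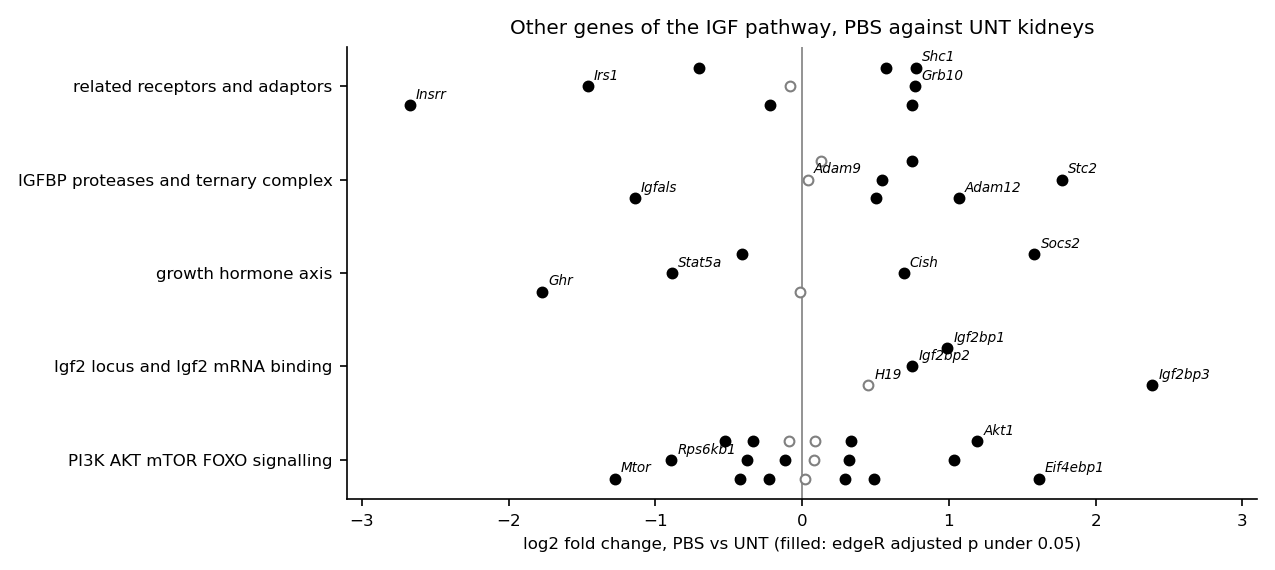
Log2 fold change of PBS against UNT for the tested genes of 5 pathway lists (one row a list, points spread vertically for legibility); filled points have an edgeR adjusted p under 0.05. Insrr at -2.67 lies farthest to the left and Igf2bp3 at 2.39 farthest to the right, and every list but the Igf2 one holds filled points on both sides of 0.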

How the data were processed

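Kidneys were flash frozen, and poly(A) RNA libraries were prepared with a stranded TruSeq kit and sequenced. Per the labels, the authors deposited raw read counts per gene (unit: counts), made with Trim Galore, STAR and HTSeq 0.6.1 on GRCm38. The submitters' processing notes also name FastQC 0.11.2, SAMtools 1.1 and Picard 1.119. The gene annotation and the strand setting of the counting are not given in the sources used here. The sample labels gave the groups, and each library was 1 mouse. The study's own text counts fewer PBS mice for RNA sequencing than the 11 labelled PBS samples; all 11 were used, and the reason for the difference is not given in the sources used here. Closing rows that name no gene were left out of library totals; reads in no gene made up 4.94 to 12.0% of all reads in a table. No libraries held identical values, and the lowest mean chi-square per gene within a group was 10.2, above sampling noise.

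Counts were tested with edgeR 4.0.16 in R 4.3.3: TMM scaling, filterByExpr, 1 quasi-likelihood fit of all 34 libraries with 3 groups and no covariate, and Benjamini-Hochberg adjustment over 15644 genes (threshold 0.05). The code was tested on simulated data. CPM is TMM-scaled. Log2 values of single mice used a pseudocount of 1. Lengths, positions and UTRs came from GENCODE M21 (GRCm38), in which 14828 of the tested symbols were found, and miRNA sequences from RefSeq. All 10 members are named. In each pathway list, up to 3 genes per direction with the smallest p among those called are named, with any not tested. For likeness, the 3 genes with the highest r are named. Some genes that these rules select are not reported here. The members and lists were chosen with earlier results of these data known, so no p-value over a list is given. Alternatives were DESeq2 1.42.0, other scalings, no filter, replicate and numbering blocks, quality and Ddx3y covariates, fits of 2 groups and omission of each library, and, added after seeing the data, omission of the RGLS4326 libraries with over 11% of reads in no gene.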

Additional observations from a re-analysis of the deposited data

How the results depend on the processing

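Of 1470 results of a member under an alternative, 134 differed in call or sign from the reported one: 80 lost a call, 16 gained one and 38 turned sign. Between PBS and UNT, 9 members were called as reported, 5 with the percentage of reads not uniquely aligned as covariate (14.8 to 19.4% in PBS, 22.8 to 25.7% in UNT kidneys; 46.9% of all genes were then called, against 82.1%) and 8 to 10 when single libraries were left out. That percentage did not overlap between UNT and either other group, so a fit with it cannot separate it from the group. Between RGLS4326 and PBS, 3 were called. By edgeR 0 were called in numbering block 1 alone (5 at an unadjusted p under 0.05), in block 3 alone (3) or with the no-gene percentage as covariate (3), while DESeq2 called 3 on all libraries. Of all genes these fits called 0.343%, none (2826 of 15676 at an unadjusted p under 0.05) and 0.569%, against 33.8% as reported. Leaving out RGLS4326 5, 6, 7 and 11, which was chosen after seeing the data, left 0 members (4 at an unadjusted p under 0.05) and 2.1% of all genes called. With single libraries left out, 1 to 3 were called, 1 without PBS 4 or PBS 11. Between RGLS4326 and UNT, 8 were called (77.7% of all genes), 5 in block 3 alone (55.8%), 4 with the percentage not uniquely aligned (46.8%) and 7 to 8 with single libraries left out. By edgeR, block 2 alone called 3 members between RGLS4326 and PBS (4 at an unadjusted p under 0.05). That fit, with 3 RGLS4326 and 4 PBS mice, called 25.5% of all genes. Fewer mice enter a block than the fit of all libraries, and the cause of these differences was not tested. Library totals alone moved the median of all genes to 0.334 for PBS and 0.326 for RGLS4326 against UNT, from 0.0385 and 0.022 with TMM.

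Signs turned as follows. In PBS against UNT, Igf2 was 0.080 in block 3 alone, and Igfbp7 was -0.13 with the no-gene percentage and -0.17 with the percentage not uniquely aligned. In RGLS4326 against PBS, block 2 alone gave -0.12 for Igf1r, -0.28 for Igfbp1 and -0.045 for Igfbp3, and block 1 alone gave 0.29 for Igfbp4 and 0.12 for Igfbp7. Block 3 alone gave 0.039 for Igfbp7, and without RGLS4326 5, 6, 7 and 11 Igfbp4 and Igfbp7 were both 0.13. The no-gene percentage gave -0.023 for Igf1r, 0.11 for Igfbp4 and 0.13 for Igfbp7. Igfbp7 was 0.0020 with library totals alone, 0.0088 with no filter and 0.0016 with only the 2 groups compared. With single libraries left out, Igf1r ran from -0.0074 to 0.072, Igfbp4 from -0.062 to 0.0095 and Igfbp7 from -0.030 to 0.029. In RGLS4326 against UNT, library totals alone gave 0.26 for Igf1 (edgeR adjusted p = 0.0365) and 0.068 for Igf2. Igf1 was 0.03 in block 1 alone, 0.064 with the no-gene percentage, 0.14 with the percentage not uniquely aligned and -0.085 to 0.036 with single libraries left out. Igf2 was 0.19 in block 3 alone, and Igfbp7 was -0.10 in block 2 alone and -0.18 with the percentage not uniquely aligned.

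With the replicate number as a block, 10, 2 and 6 members were called for PBS against UNT, RGLS4326 against PBS and RGLS4326 against UNT, beside 81.7, 32.6 and 77.7% of all genes. By edgeR, Igfbp1 then lost its call after RGLS4326 against PBS (0.95, adjusted p = 0.0723) and UNT (-0.83, adjusted p = 0.0595), as did Igfbp7 against UNT (0.14, adjusted p = 0.0605), and Igf2 gained one between PBS and UNT (-0.39, adjusted p = 0.0116). The numbers did not pair the mice: deviations from group means correlated above 0.1 in 5 of 11 pairs of PBS and RGLS4326, 2 of 11 of UNT and PBS and 3 of 11 of UNT and RGLS4326, and best with the own number in 2, 1 and 2 of 11. No member was called for a treatment difference that varied between blocks, with DESeq2 size factors or library totals alone either.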
